A study of Drosophila melanogaster with 3 samples.

Results

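The 80 nuclear genes described here encode subunits of the oxidative phosphorylation machinery of the fruit fly. They were chosen by name, as all genes whose symbol starts with ND- (complex I), UQCR (complex III), COX (complex IV) or ATPsyn (complex V, the ATP synthase), among the 18164 genes of the X chromosome, chromosome 4 and both arms of chromosomes 2 and 3; 13945 of these genes are protein-coding. Of the 80 genes, 59 are main copies and 21 are paralogs that carry the main copy's name with the suffix L. Peaks were read for E(bx), also called NURF301, the largest subunit of the nucleosome remodelling complex NURF. The measurement was chromatin immunoprecipitation with sequencing on whole embryos of mixed sex aged 0 to 16 h, in 1 group of 3 biological replicates with no second group. The embryos came from a transgenic line in which E(bx) is stably expressed as a fusion with green fluorescent protein, GFP, on the C-terminal side. The description names an antibody against the fluorescent protein, while the antibody field reads E(bx). All cell types of the embryo are pooled, so a peak does not say in which cells the protein was bound.

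The mitochondrial respiratory chain passes electrons from NADH and succinate to oxygen and pumps protons across the inner membrane, and the ATP synthase uses the proton gradient to make ATP. A few subunits of most of these complexes are encoded in mitochondrial DNA, and the remaining ones are encoded in the nucleus, where cells must transcribe them together with the genes for mitochondrial translation. In Drosophila many of these nuclear genes have a diverged duplicate, and such duplicates are known for expression that is biased to the testis. The files hold peaks and no expression values, so the expression of the genes was not measured here.

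Peaks of tagged E(bx) lay at the start sites of the main copies and were rare at the L paralogs. In the authors' reproducible peak set (the optimal set by irreproducible discovery rate, IDR, 9708 peaks on the dm6 build), 59 of 59 main copies had a promoter peak, that is, a summit no more than 500 bp from one of their annotated start sites (95% Wilson interval 93.9 to 100%). Of the L paralogs, 2 of 21 had one (9.52%, 2.65 to 28.9%). Together these were 61 of 80 genes (76.2%, 65.9 to 84.2%), beside 50.3% of all 13945 protein-coding genes. The intervals cover counting error only and treat genes as independent draws. These genes are a complete set chosen by name, with related copies among them, so the intervals do not measure spread between libraries. The files hold no read counts, and the depth of the libraries is unknown. Peaks were called with a control that was not analysed here, so sites that precipitate with any antibody cannot be told apart from binding sites of E(bx).

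The contrast is shown by 4 promoters, those of the L paralog ND-20L, which had no peak, and of the main copies UQCR-14, UQCR-11 and ND-51. UQCR-11 and ND-51 had the strongest peaks of complexes III and I, and UQCR-14 is the main copy of another paralog without a peak. ND-51 encodes the core subunit of complex I that accepts electrons from NADH, UQCR-14 and UQCR-11 encode small subunits of complex III, and ND-20L is a paralog of the core subunit gene ND-20. Each sequence runs from 250 bases before to 50 bases after the canonical start site, 5′ to 3′ on the gene's strand, in the Release 6 genome (dm6). Capitals mark the 21 bases centred on the summit of the strongest promoter peak, and the sequence without capitals had no peak. The windows were chr3R:29515467-29515766 (plus strand) for ND-20L and chrX:16286038-16286337 (plus strand) for UQCR-14. They were chr3L:25120499-25120798 (plus) for UQCR-11 and chr2L:6062708-6063007 (minus) for ND-51.
ND-20L: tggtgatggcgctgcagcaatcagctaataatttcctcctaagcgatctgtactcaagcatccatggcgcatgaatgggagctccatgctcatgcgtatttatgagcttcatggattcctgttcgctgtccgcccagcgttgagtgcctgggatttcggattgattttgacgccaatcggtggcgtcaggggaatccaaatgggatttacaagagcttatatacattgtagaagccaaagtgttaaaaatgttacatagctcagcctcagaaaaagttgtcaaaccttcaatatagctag
UQCR-14: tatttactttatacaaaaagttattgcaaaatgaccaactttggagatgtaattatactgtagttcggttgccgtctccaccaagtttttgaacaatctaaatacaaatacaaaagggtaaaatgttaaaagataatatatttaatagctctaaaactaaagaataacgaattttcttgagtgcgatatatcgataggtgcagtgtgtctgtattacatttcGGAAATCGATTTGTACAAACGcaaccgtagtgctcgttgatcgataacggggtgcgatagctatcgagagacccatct
UQCR-11: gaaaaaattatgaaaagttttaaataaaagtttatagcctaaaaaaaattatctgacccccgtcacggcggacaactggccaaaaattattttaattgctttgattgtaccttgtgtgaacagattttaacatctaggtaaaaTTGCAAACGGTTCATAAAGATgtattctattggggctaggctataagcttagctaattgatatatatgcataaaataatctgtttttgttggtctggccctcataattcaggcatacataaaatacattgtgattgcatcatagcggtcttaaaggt
ND-51: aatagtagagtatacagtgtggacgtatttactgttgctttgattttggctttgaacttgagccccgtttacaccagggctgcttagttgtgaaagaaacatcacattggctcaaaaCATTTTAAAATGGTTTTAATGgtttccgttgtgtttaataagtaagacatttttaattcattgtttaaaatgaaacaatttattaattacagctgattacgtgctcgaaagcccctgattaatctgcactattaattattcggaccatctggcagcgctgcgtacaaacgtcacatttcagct

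The marked bases lay 18 bp before the printed start site in UQCR-14, 97 bp in UQCR-11 and 123 bp in ND-51, positions that are -18, -97 and -123 when counted from that start site. In UQCR-11 another annotated start site lies closer, so that its summit was 57 bp upstream (-57) of the nearest one. The ND-20L promoter had 45.3% G and C, that of UQCR-14 34.3%, that of UQCR-11 32.3% and that of ND-51 36%. The printed paralog is not typical of its group in this respect, since the L paralogs had a median of 34% and the main copies of 34.7%.

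Signal at the main copies varied widely, with a median above that of all genes with a peak. The signal value is the authors' score for each peak; its scale is not stated, and it serves here to describe and rank peaks within a list. Over the 59 main copies the strongest promoter peak had a median signal of 1073 (quartiles 738 and 1545, range 299 to 2769), beside a median of 834 over the 7018 protein-coding genes with a promoter peak. By rank, 22 of the main copies (37.3%) had a peak among the 1000 strongest, beside 18.1% of all protein-coding genes with a peak, and 55 (93.2%) lay in the stronger part of the set (ranks 1 to 4854), beside 75%. The peaks of the main copies had a median width of 497 bp, beside 464 bp.

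**Figure D1:**
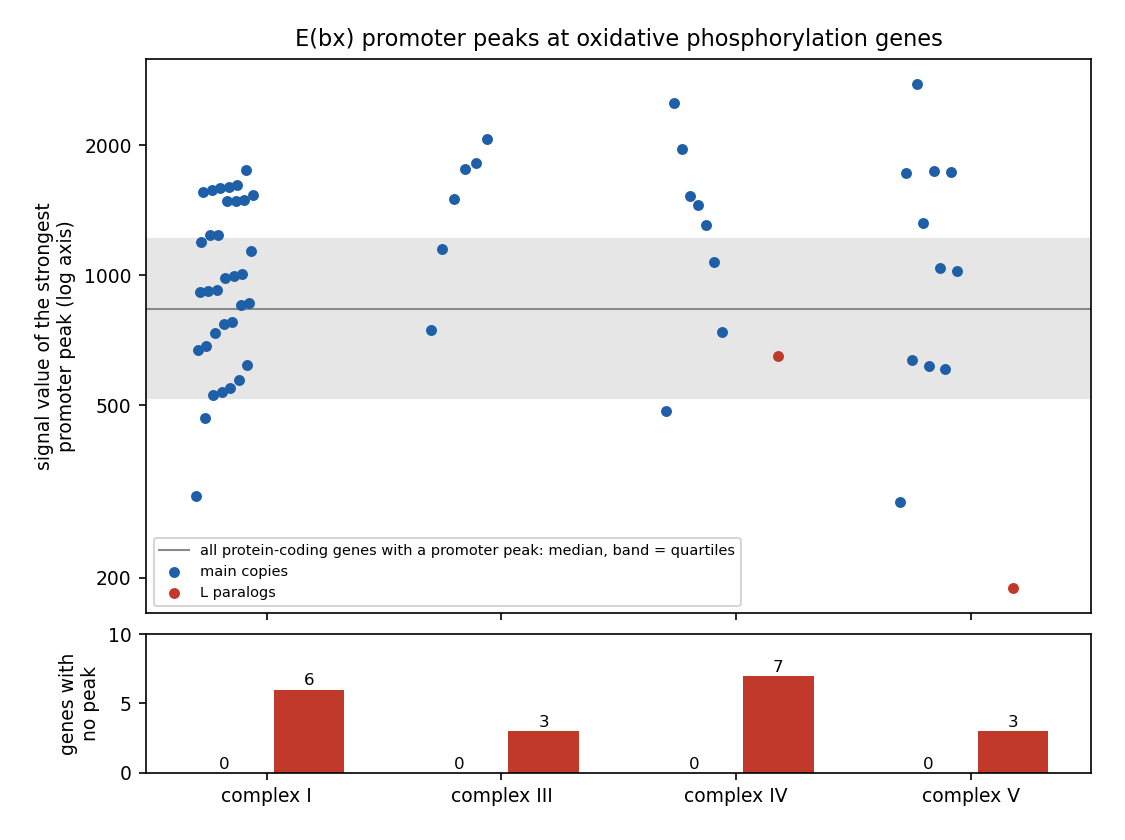
Signal value of the strongest promoter peak (log axis) for each main copy and L paralog by complex, with the number of genes without a peak below. All 59 main copies have a point, between 299 and 2769, while 19 of the 21 L paralogs have none; the line and band give the median of 834 and the quartiles of all protein-coding genes with a promoter peak.

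Complex I takes electrons from NADH and hands them to ubiquinone. All 34 of its main copies had a promoter peak, with a median signal of 955 (308 to 1749). The 7 core subunits, which carry the redox centres and the quinone site, had a median of 986 and the 27 accessory subunits one of 923, a difference that was not tested. The strongest was ND-51, whose signal was 1749 in the pooled list and 470, 633 and 668 in the lists of replicates 1, 2 and 3. It was followed by the accessory subunits ND-13B (1614 pooled, 451, 501 and 666 by replicate) and ND-B22 (1602 pooled, 518, 548 and 525 by replicate). The summit of ND-51 lay nearer to the start site of CG13994 than to its own. The weakest were ND-B12 (308 pooled, 71.3, 92.6 and 160 by replicate) and ND-23, a core subunit with iron-sulfur clusters (467 pooled, 130, 121 and 224 by replicate). The 3 strongest genes were above the 2 weakest in the pooled list and in each replicate's list. Signal values of different lists cannot be compared with each other, since each list was scored on its own. Each value is that of the strongest summit within 500 bp in its list, which need not be the same summit. At ND-23 this summit lay at -139 in the pooled list and at -261, -260 and -266 in replicates 1, 2 and 3.

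Complex III passes electrons from ubiquinol to cytochrome c. All 6 of its main copies had a promoter peak, with a median of 1631 (746 to 2063), above the medians of complexes I, IV and V. UQCR-11, a small subunit of the hinge type, led with 2063 in the pooled list and 865, 906 and 271 in replicates 1, 2 and 3. UQCR-Q, which contributes to the ubiquinone-binding region, had 1814 (558, 690 and 594 by replicate), and UQCR-C2, a core protein on the matrix side, had 1760 (515, 641 and 594 by replicate). UQCR-C1, the partner of UQCR-C2 in the core, had 1502. The lowest were UQCR-6.4 (746 pooled, 266, 353 and 183 by replicate) and UQCR-14 (1148 pooled, 324, 439 and 408 by replicate). In the list of replicate 3 UQCR-11 stood below UQCR-Q, UQCR-C2, UQCR-C1 (514 there) and UQCR-14, and only UQCR-6.4 was lower. In the other lists UQCR-11 was above all of these.

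Complex IV, cytochrome c oxidase, reduces oxygen to water. All 8 of its main copies had a promoter peak, with a median of 1378 (486 to 2501). COX5B, a nuclear-encoded subunit that binds zinc, had the second highest signal of all members, 2501 in the pooled list and 739, 876 and 897 in replicates 1, 2 and 3, where it ranked 127, 127 and 15. COX6B, on the side facing cytochrome c, had 1959 (624, 812 and 550 by replicate), and COX7B had 1522 (360, 499 and 696 by replicate). The strongest summits of COX5B, COX6B and COX7B each lay nearer to the start site of another gene. Summits nearest to the own start site had 1157 at COX5B and 261 at COX7B, and COX6B had none. COX7C had the lowest signal (486 pooled, 149, 205 and 227 by replicate), followed by COX4, the largest nuclear-encoded subunit (740 pooled, with ranks of 3365, 3631 and 3315 by replicate). The strongest summit of COX7C lay at -21 in the pooled list and at 320, 326 and 3 in replicates 1, 2 and 3. The order of the extremes was the same in each replicate, with COX5B above and COX7C below the other genes named for this complex.

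Complex V makes ATP. All 11 of its main copies had a promoter peak, with a median of 1040 (299 to 2769). ATPsynF, a small subunit of the membrane part, had the strongest peak of all members: its signal was 2769 in the pooled list, rank 35 of 9708, and 890, 1127 and 797 in replicates 1, 2 and 3, where it ranked 58, 38 and 46. ATPsynC, the subunit of the rotating ring, had 1746 (572, 679 and 582 by replicate), and ATPsynB, of the peripheral stalk, had 1732 (502, 656 and 564 by replicate). The lowest values were those of ATPsyndelta (299 pooled, 92, 118 and 115 by replicate) and ATPsynbeta (606 pooled, 276, 207 and 148 by replicate), both of the catalytic head and its rotor. ATPsyndelta was the lowest in each replicate. Its strongest summit lay at -203 in the pooled list and at -271, -22 and -443 in replicates 1, 2 and 3. ATPsynbeta stood above ATPsynG in replicates 1 and 2 (199 and 203 at ATPsynG) and above ATPsynCF6 in replicate 1 (164). By location in the enzyme, the 3 genes of the head and rotor (ATPsynbeta, ATPsyngamma and ATPsyndelta) had a median of 606, the 4 stalk genes 1521 and the 4 membrane genes 1384. The first median is the value of ATPsynbeta, whose strongest summit lay at -494 and nearer to the start site of CG11076. The alpha subunit gene blw (1466) and the epsilon subunit gene sun (717), also of the head and rotor, fall outside the symbol rule and are not in the first median. With so few genes in each class these medians are a description of the genes and no test was made.

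The L paralogs differed from their own main copies and not only from the members as a whole. Of the 21 paralogs, 4 belong to main copies with other symbols (COX6AL and COX6AL2 to levy, COX6CL to cype and ATPsynepsilonL to sun) and the others to a main copy among the members. The 18 distinct main copies all had a promoter peak (18 of 18, median signal 837), beside 50.3% of all protein-coding genes. At 5 of the 18 the strongest summit lay nearer to the start site of another gene. With each summit given only to the gene with the nearest start site, 16 of 18 kept a promoter peak, beside 41.2% of all protein-coding genes. Without one were 6 of 6 paralogs in complex I (ND-20L, ND-24L, ND-49L, ND-51L1, ND-51L2 and ND-B14.5AL) and 3 of 3 in complex III (UQCR-11L, UQCR-14L and UQCR-6.4L). The same held for 7 of 8 in complex IV (COX4L, COX5BL, COX6AL, COX6AL2, COX6CL, COX7AL2 and COX7CL) and 3 of 4 in complex V (ATPsynCF6L, ATPsynGL and ATPsynbetaL). The sources used here do not say how reads matching both copies of a pair were handled, and the part of this in the difference was not tested.

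In complexes I and III the main copies of these paralogs ran from UQCR-11 (2063) and ND-51 (1749) through ND-20 (1484), UQCR-14 (1148), ND-49 (1009) and ND-24 (986) to UQCR-6.4 (746) and ND-B14.5A (537). In complexes IV and V they ran from COX5B (2501) and COX7A (1073) through COX4 (740), ATPsynCF6 (637), ATPsynG (618) and ATPsynbeta (606) to COX7C (486). Outside the symbols of the members, cype had 838, levy 836 and sun 717. Main copies with a strong peak, such as COX5B, and with a weak one, such as COX7C, thus both had a paralog without one.

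The paralogs with a promoter peak were COX7AL and ATPsynepsilonL. The summit at COX7AL (signal 650 pooled, 205, 239 and 225 by replicate) lay 109 bp upstream of its start site (-109) and 44 bp from that of another gene. The summit at ATPsynepsilonL (189 pooled, rank 8768, and 53.7, 71.2 and 64 by replicate) lay 308 bp upstream (-308) and 65 bp from the start site of gammaSnap2, a gene on the other strand that starts 373 bp away. When each summit was given only to the gene with the nearest start site, 0 of 21 L paralogs and 53 of 59 main copies kept a promoter peak, beside 41.2% of all protein-coding genes. Which gene such a shared peak belongs to cannot be told apart.

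The paralogs without a promoter peak were mostly far from any peak. Over all 21 L paralogs, the median distance from start site to nearest summit of the reproducible set was 4654 bp (109 to 35797 bp). The 2 with a promoter peak are included, and 16 of 21 lay beyond 1000 bp. For the main copies the median was 38 bp (1 to 348 bp). Genes without a promoter peak are more than 500 bp away by definition. The distance was not computed for all protein-coding genes, so it has no background here. Just outside the 500 bp limit lay COX7AL2 (533 bp), COX4L (607 bp) and COX7CL (888 bp). Just inside it were the summits of ATPsynepsilonL (308 bp) and of ND-30 (348 bp), the farthest of the nearest summits at the main copies, while the strongest summit of ATPsynbeta lay at -494. Farthest from any summit were ATPsynCF6L (35797 bp) and ATPsynGL (35630 bp).

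Weak peaks added few paralogs. The list called on the pooled reads of all replicates is relaxed and includes background; it held 30000 peaks and gave a promoter peak to 65 of 80 members, beside 61.5% of all protein-coding genes. These were again 59 of 59 main copies and 6 of 21 L paralogs (28.6%). The 4 paralogs added were COX7AL2 with a signal of 59.4, COX7CL with 43.4, UQCR-6.4L with 31.9 and UQCR-11L with 28.8. The weakest peak of the reproducible set had 156, so that these are all outside the range of the set.

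**Figure D2:**
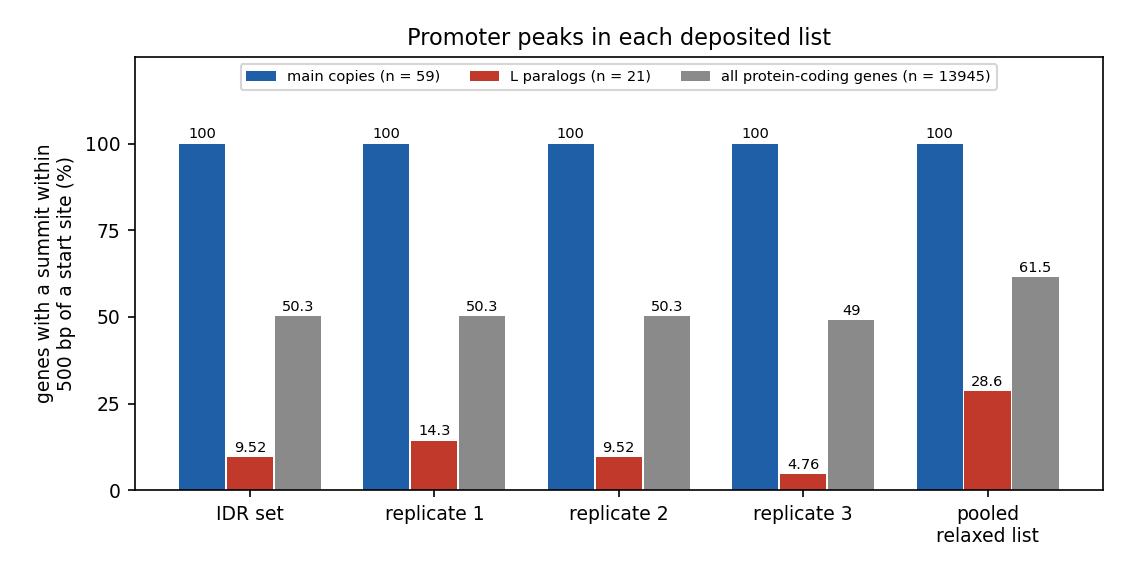
Share of main copies, L paralogs and all protein-coding genes with a summit within 500 bp of a start site, in the reproducible (IDR) set, among the best 9708 peaks of each replicate and in the pooled relaxed list. Main copies stand at 100% in each list, L paralogs between 4.76 and 28.6%.

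The 3 libraries gave the same contrast on their own. Among the best 9708 peaks of each library's list, 59 of 59 main copies had a promoter peak in replicates 1, 2 and 3 alike, beside 50.3%, 50.3% and 49% of all protein-coding genes. The L paralogs with one numbered 3, 2 and 1, or 14.3, 9.52 and 4.76% (mean 9.52% ± 4.76, SD, n = 3). COX7AL was among them in each library, ATPsynepsilonL in replicates 1 and 2, where it ranked 8022 and 8145 but 11235 in replicate 3, and COX7AL2 in replicate 1, at rank 9401. The main copies exceeded the paralogs by 85.7, 90.5 and 95.2 percentage points (mean 90.5 ± 4.76, SD, n = 3; exact two-sided sign-flip test, p = 0.25, the smallest that 3 libraries allow). The reproducible set was made from these same libraries, so the lists are not independent of it.

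The contrast was also seen at close range in 2 of 3 pairs of neighbouring copies. COX5B and COX5BL lie in tandem on 2L with 122 bp between the end of COX5B and the start of COX5BL. Summits lay 256 bp (signal 2501) and 57 bp (signal 1157) upstream of the COX5B start site, and the next ones lay 3888 bp and 4087 bp downstream of it, inside Trmt6. COX5BL starts at 1631 bp and had none in between. COX7C and COX7CL lie in tandem with 281 bp between them; COX7C had summits 313 bp (441) and 1107 bp (486) from its outermost start site, and none lay at COX7CL, which starts at 1995 bp. In the third neighbouring pair, COX7A and COX7AL, the start sites are 2626 bp apart, and both copies had a promoter peak, with a signal of 1073 at COX7A and 650 at COX7AL. The summit at COX7AL lay nearer to the start site of another gene than to its own.

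**Figure D3:**
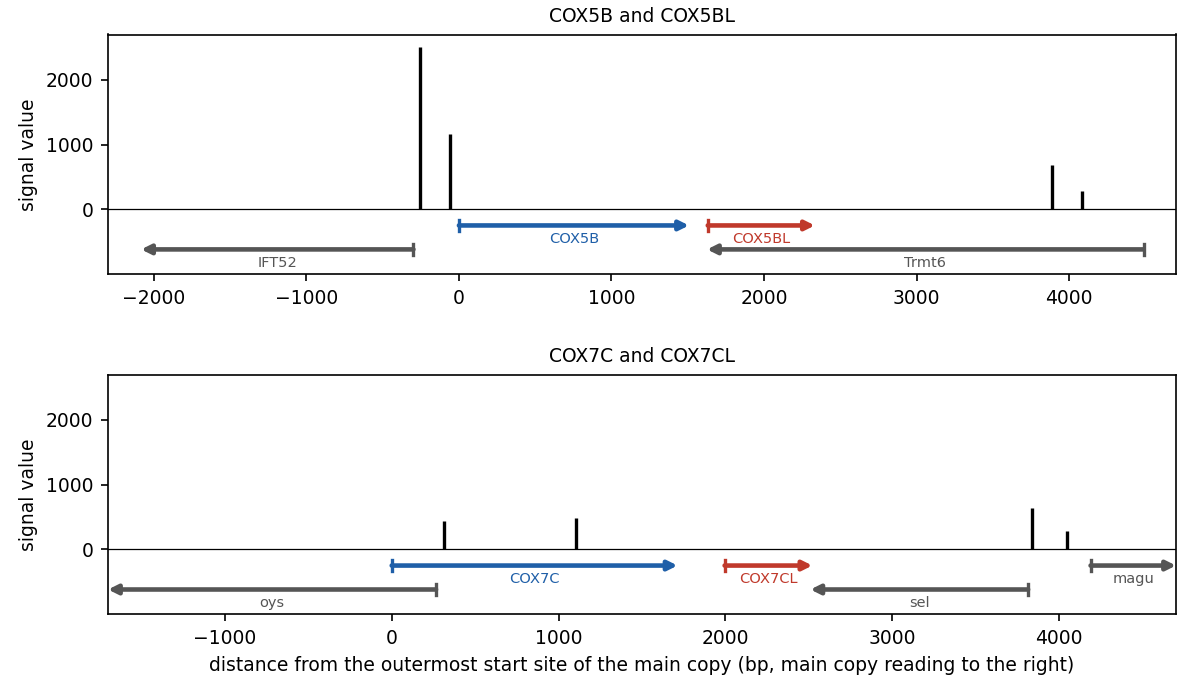
Maps of 2 pairs of main copy (blue arrow) and L paralog (red arrow) that lie in tandem, with other genes in grey and each summit of the reproducible set as a vertical line of the height of its signal value. The x axis gives the distance in bp from the outermost start site of the main copy; no summit stands at the start of COX5BL or COX7CL.

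Summits at the main copies sat just upstream of the start site. The median position of the strongest summit was 43 bp upstream (-43, quartiles -80.5 and -16, range -494 to 20), with 54 summits upstream and 5 downstream. Among the 7018 protein-coding genes with a promoter peak, 6257 summits lay upstream and 737 downstream. Within 100 bp of the start site were 49 of 59 (83.1%), beside 62.6% of all protein-coding genes with a promoter peak, whose median position was -61. The position is taken to the nearest start site, and 45.8% of main copies had a single one, beside 73.5% of all protein-coding genes. Among genes with a single start site and a promoter peak the gap was smaller, with 19 of 27 main copies (70.4%) within 100 bp, beside 62.5%. Their median positions were -47 and -61. More than 1 summit lay within 500 bp at 23 of 59 main copies, beside 2307 of the 7018 protein-coding genes with a promoter peak. At ATPsynC the summit of 1746 at -78 was accompanied by weaker ones of 192 at 427 and 173 at -283. At COX8 a second summit of 994 at -254 lay next to the main one of 1451 at -54, and it was closest to VhaM9.7-b, a gene of the vacuolar ATPase.

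**Figure D4:**
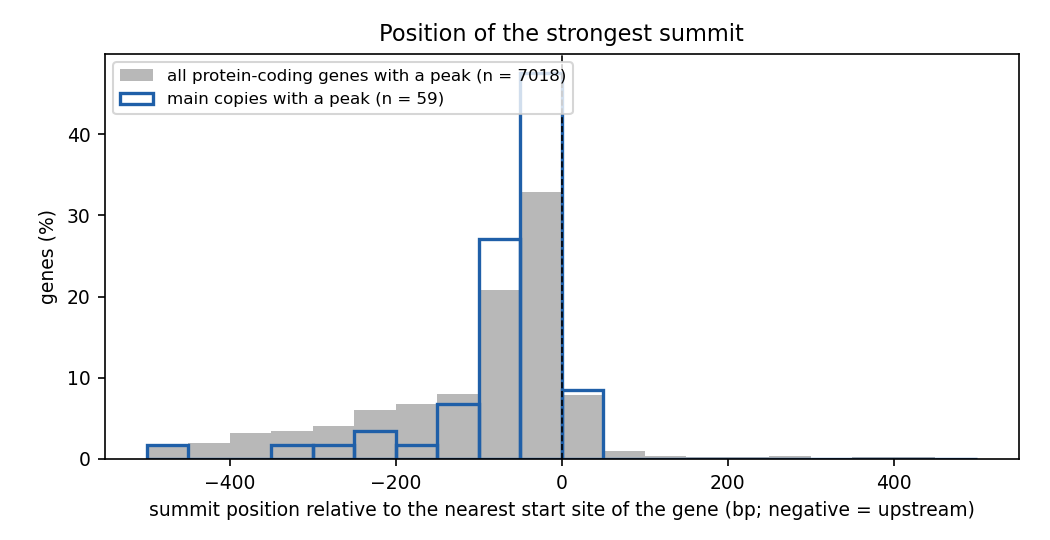
Position of the strongest summit relative to the nearest start site of the gene, in bins of 50 bp, as percent of the 59 main copies (blue outline) and of the 7018 protein-coding genes with a promoter peak (grey). The main copies have their median at -43 bp and all genes at -61 bp, and 5 main copies lie downstream.

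Many main copies share their promoter region with another gene. A head-to-head partner, that is, a protein-coding neighbour transcribed away from the gene with its start site within 1000 bp, was annotated for 39 of 59 main copies (66.1%) and 3 of 21 L paralogs, beside 36.2% of all protein-coding genes. Among the genes with no such partner, 20 of 20 main copies had a promoter peak, 0 of 18 L paralogs and 32.9% of all protein-coding genes; among those with a partner it was 39 of 39, 2 of 3 and 81%. Among genes with a single annotated start site it was 27 of 27 main copies, 2 of 19 L paralogs and 44.5% of all. Every main copy thus had a peak also among those without a partner and among those with a single start site.

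At 10 of 59 main copies the strongest summit lay nearer to the start site of another gene. This was so at 1870 of the 7018 protein-coding genes with a promoter peak. The 10 main copies are named here. For COX5B this was IFT52, for COX7B Sec3, for ND-42 Cchl and for ND-B15 CG10151. Each of these main copies also had a weaker summit nearest to its own start site, with a signal of 1157 at -57 for COX5B, 261 at 72 for COX7B, 725 at 2 for ND-42 and 459 at 31 for ND-B15. The 6 main copies with no summit of their own in this sense were ND-30 (nearest CG15812), ND-51 (CG13994), ND-B8 (Secp43), ND-MLRQ (mir-4942), COX6B (CG33932 and Rpp20) and ATPsynbeta (CG11076). ATPsynbeta, the catalytic subunit of the ATP synthase, had its strongest summit (606) at -494 and another (528) at -78, both within 29 bp of a start site of CG11076. ND-51, the strongest gene of complex I, thus shares its peak, and its signal cannot be told apart from that of CG13994.

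The paralogs also differed from their main copies in gene structure and place. By canonical transcripts the main copies had a median of 3 exons and 0 of 59 had a single exon, while the L paralogs had a median of 2 and 7 of 21 had a single exon (33.3%), beside 16.1% of all protein-coding genes. In 16 of 21 pairs the paralog had fewer exons, as for ND-24L with 1 against 4 in ND-24 and ND-49L with 2 against 7 in ND-49. In 4 pairs the numbers were equal, and in 1, COX6AL2 with 7 against 2 in levy, the paralog had more. On the X chromosome lay 12 of 59 main copies (20.3%) and 0 of 21 L paralogs, beside 15.7% of all protein-coding genes. In 15 of the 21 pairs the copies were on different arms, with no share computed for other gene pairs. The largest share of protein-coding genes on 1 arm was 24.5% (3R), so most pairs of any genes lie on different arms. Whether position or structure bears on the missing peaks was not tested.

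The libraries ranked most main copies alike, with replicate 3 apart for some. For the signal at the 59 main copies, replicates 1 and 2 had a Spearman's rho of 0.966, replicates 1 and 3 of 0.662 and replicates 2 and 3 of 0.736, a description across genes, which are not independent replicates. A comparison of ranks was added after the values were seen. In replicate 3 the rank number was at least 3 times that in both other libraries at ND-20, ND-49, ND-AGGG, ND-MLRQ and UQCR-11, or 5 of 61 members with a promoter peak (8.2%), beside 2.91% of protein-coding genes with a promoter peak. UQCR-11 ranked 70, 109 and 3691 in replicates 1, 2 and 3, and ND-AGGG, an accessory subunit of complex I, 166, 481 and 5917. ND-20, which is on X, ranked 536, 531 and 1830.

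Of these 5 genes, 4 lie on chromosome 4 or on 3L beyond 23 Mb, and of the members in these regions with a promoter peak it was 4 of 5 (80%). ATPsynbeta, the remaining one, ranked 2187, 4160 and 6547, which is in the same direction. Among all genes of these regions it was 27 of 58 protein-coding genes with a promoter peak on chromosome 4 (46.6%) and 20 of 23 on 3L beyond 23 Mb (87%). In the other direction, replicate 3 ranked COX5B, COX7B and ND-13B at most at 1/3 of the rank in both others, 3 of 61 members (4.92%), beside 3.72% of protein-coding genes with a promoter peak. COX7B ranked 1293, 955 and 137, and ND-13B 728, 949 and 182. The cause of the difference between libraries was not tested, and presence of a promoter peak in the 3 libraries did not change for any of these 8 genes.

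**Figure D5:**
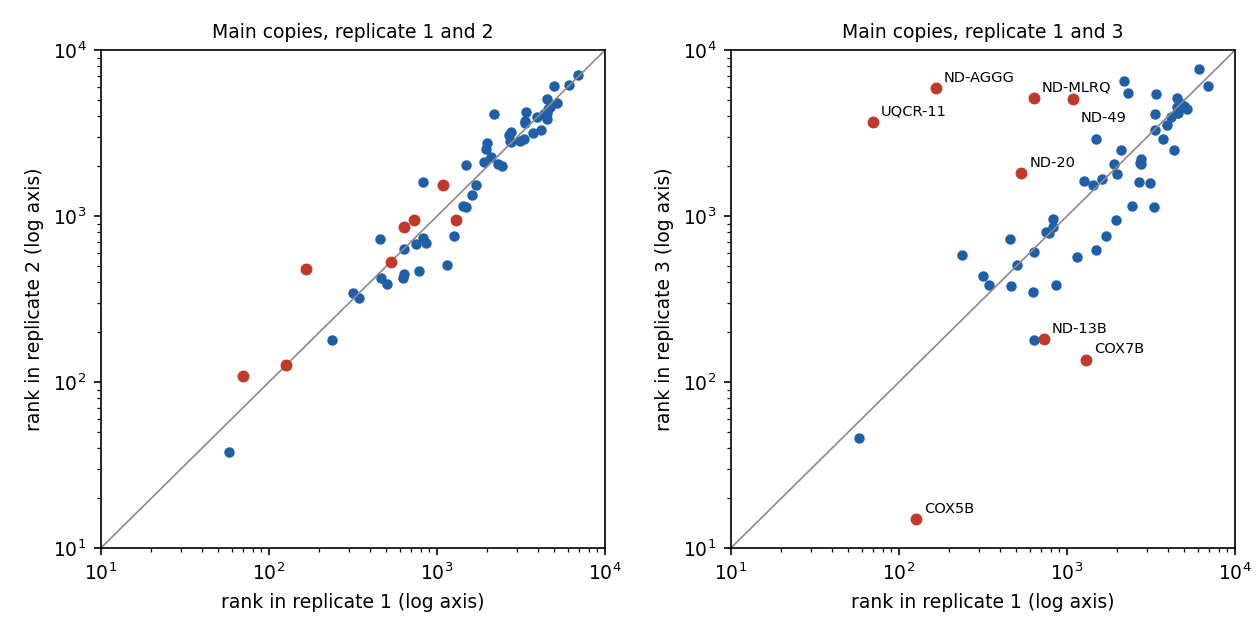
Rank of each main copy's strongest promoter summit in replicate 1 against that in replicate 2 (left) and replicate 3 (right), both on log axes, where rank 1 is the strongest; the line marks equal ranks. Red points are the 8 genes whose rank in replicate 3 differed at least 3-fold from both others, for example UQCR-11 with 70 and 3691.

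Respiratory genes outside the symbol rule mostly had a promoter peak too. Of 33 such genes listed, 32 were found in the annotation. A promoter peak was present at 28 of these (87.5%), beside 50.3% of all protein-coding genes. The 4 without one were SdhAL and SdhBL, paralogs of complex II subunits, Cyt-c1L, a paralog of the cytochrome c1 gene, and Mpcp1, one of a pair of genes for the mitochondrial phosphate carrier. The other copy, Mpcp2, had one of the strongest peaks of the list (2415 pooled, 803, 994 and 669 by replicate). Genes with the suffix L thus had a promoter peak in 0 of 3 cases and the others in 28 of 29.

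By role, the complex II genes SdhB (1416), SdhC (992), SdhA (965) and SdhD (875) had peaks, although that of SdhC was nearest to Tctp. Complex II oxidises succinate and is the one complex encoded wholly in the nucleus. In complex III RFeSP, the Rieske iron-sulfur protein, had 1623, ox 1560 (nearest to Dgkepsilon) and Cyt-c1 339. The cytochrome c genes differed: Cyt-c-p, the copy used in most tissues, had 1702 (518, 595 and 567 by replicate) at -183. Cyt-c-d, known for its role in sperm development, had 253 (67.4, 23.5 and 23.8 by replicate) at 445, nearest to CG31808. In complex V blw, the alpha subunit, had 1466, and CG13551, matched to the ATPase inhibitor factor through a synonym, had 1151 with its summit nearest to a long non-coding RNA gene.

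Among assembly factors the signal was 1333 at Ttc19, 1200 at CIA30, 695 at Surf1, 558 at Scox and 326 at Bcs1. The summits at Ttc19 and Surf1 were nearest to Acn and Uqcc1, and those at levy and cype to wmd and Ncoa6. Of the regulators, Ets97D, the fly counterpart of a nuclear respiratory factor subunit, had 1558, ewg, related to another nuclear respiratory factor, 1459, and srl, the fly relative of the coactivator PGC-1, 1447. The factors of mitochondrial transcription had 970 (TFAM), 961 (mtTFB1) and 465 (mtTFB2). The adenine nucleotide carrier genes sesB and Ant2, which overlap, shared a peak of 597.

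Families with related functions gave a comparison, beside a share of 50.3% of all protein-coding genes with a promoter peak. All 73 mitochondrial ribosomal protein genes had a promoter peak (median signal 898), as the main copies did. Of 33 vacuolar ATPase genes, which form another proton-moving complex with paralogous subunits, 21 had one (63.6%, median 1023). Those without were VhaM9.7-d, Vha14-2, Vha16-2, Vha16-3, Vha16-4, Vha36-2, Vha36-3, Vha68-3, Vha100-3, Vha100-4, Vha100-5 and VhaPPA1-2. Outside the members, 11 protein-coding genes have another gene's symbol with the suffix L, and 3 of these had a promoter peak (27.3%: SppL, promL and AhcyL1) against 8 of 9 of the genes they are named after. This group includes ImpL1 and ImpL2, which are not copies of Imp, and the complex II and III paralogs named for the respiratory list. None of these differences was tested.

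Promoter sequences of the main copies held some core promoter letters at other shares than all protein-coding genes, and others at shares close to them. None of these differences in letters was tested. In the 300 base promoters, searched on both strands, GGTCACAC, the core of a motif of broadly expressed fly promoters called motif 1, was present in 15 of 59 main copies (25.4%), 1 of 21 L paralogs (4.76%) and 7.54% of 13944 protein-coding genes. The paralog was COX7AL, one of those with a promoter peak. TATCGATA, the DNA replication-related element (DRE), was present in 8 of 59 main copies (13.6%), 0 of 21 L paralogs and 8.94% of all. The printed UQCR-14 promoter holds it at -62, and the other genes were COX4, COX7A, ND-19, ND-23, ND-B14.5A, ND-B15 and ND-MNLL. CGATA, which TATCGATA contains, was present in 54.2, 33.3 and 46.9% of main copies, L paralogs and all.

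GAGAG was present in 18.6% of main copies, 33.3% of L paralogs and 30.2% of all protein-coding genes, TATAAA in 54.2, 28.6 and 45.3%, and TCAGT in 35.6, 28.6 and 51.8%. CACGTG was present in 3.39, 9.52 and 4.26%. The nuclear respiratory gene element, a longer motif known from Drosophila promoters of mitochondrial genes, was searched in a form written from general knowledge that may be too strict. That form was found in 0 of 59 main copies, 0 of 21 L paralogs and 0.868% of all, which does not show that the element is missing. Among genes with a promoter peak, windows of 100 bp to each side of the strongest summit held GGTCACAC at 22% of main copies and 14.7% of all. In the same windows TATCGATA stood at 18.6% and 14.9%, and CGATA at 54.2% and 52.6%. The gap for motif 1 was smaller in these windows than in the promoters, where genes without a peak are included. G and C made up a median of 34.7% of main copy promoters, 34% of L paralog promoters and 38% of all, so that main copies and paralogs were close in composition. A match of letters describes the sequence only and does not show a bound factor.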

How the data were processed

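The samples were 3 biological replicates of 1 group, grouped by the labels. Per the deposited file records, alignments of the libraries and a control went into peak calling, and the reproducible set was derived from the lists of the replicates and of the pooled reads. The sources used here name no aligner, peak caller, caller settings or IDR threshold. The deposited signal value (column 7) is the authors' score per peak, on an unstated scale. The deposited −log10 q-value was 4.39 for every peak of the reproducible set and was not used to rank. The lists give no read counts, so depth is unknown; all lists used are on dm6, and the dm3 lists were not used. The relaxed lists held 30000 (pooled), 30000, 28972 and 30000 peaks (replicates 1, 2 and 3); on Y, 1 pooled peak and 1 from replicate 1 were not used.

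Gene models were those of Ensembl release 115. A summit, the deposited start plus offset, counted for a gene within 500 bp of any of its start sites, and a gene's strongest summit gave its signal, rank and position. A main copy has the paralog's symbol without its final L or L and digit, and 4 paralogs were paired by alias. Libraries were compared through their best 9708 peaks. Sequences were read from the Release 6 reference genome. Python 3.11.15, pandas 2.3.3, NumPy 2.4.6, SciPy 1.17.1 and matplotlib 3.10.9 were used, and the counting was tested on simulated peaks. The members, lists and motifs were chosen with earlier results of these data known. Named are every member without a promoter peak, every L paralog with its main copy, the 3 strongest and 2 weakest members per complex, members whose summit is nearer to another gene, and all other respiratory genes; further members were chosen after their values were seen. Some sequences and 1 neighbouring gene are not reported here. Nothing was tested between lists of genes, and the 3 libraries, whose spread may be partly technical, entered 1 exact sign-flip test. Alternatives were windows of 250 and 1000 bp, the 4854 strongest peaks, the relaxed list, overlap of the peak region, nearest start site only, each library alone, each replicate left out (keeping peaks matched within 200 bp in both others) and motif windows at summits.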

Additional observations from a re-analysis of the deposited data

How the results depend on the processing

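Of 73 values recomputed under other settings, 54 kept within the limits set for them and 19 moved. Whether any difference changed direction was not assessed. The following counts changed but kept within their limits. Members with a promoter peak, 61, ran from 53 by nearest start site only to 65 in the relaxed list. Main copies with a promoter peak, 59, fell as low as 53, by nearest start site only. Other respiratory genes with a promoter peak, 28, ran from 24 among the stronger 4854 peaks to 29 with the 1000 bp window. Members nearest to their own start site rose from 49 to 54 when ties within 50 bp were counted. The number of L paralogs with a promoter peak, 2, became 1 with a 250 bp window, 5 with 1000 bp, 1 among the stronger 4854 peaks, 6 in the relaxed list, 1 when the peak region had to cover a start site, 1 in the best peaks of replicate 3 and 0 by nearest start site only. Without each replicate in turn it ran from 1 to 2 (1 without replicate 1 and 1 without replicate 2). Small counts like these shift by a large factor with a single gene. The median signal of the members, 1040, became 1096 with the 1000 bp window and 1143 among the stronger peaks; in the lists of replicates 1, 2 and 3, each with its own scale, it was 297, 357 and 398. Their median summit position, -46 bp, became -40.5 with the 1000 bp window and -40 in replicate 2. At summits in place of promoters, main copies with CACGTG fell from 2 to 0, with GAGAG from 11 to 7 and with TATAAA from 32 to 20, where the windows reach 100 bp to each side. ND-30 alone of the main copies lost its peak at 250 bp, while ATPsyndelta, COX7C, ND-23 and ND-B12 lost theirs among the stronger 4854 peaks. Leaving out assembly factors removed 0 members and gave no other value. No paired analysis was possible because there is 1 group. Depth is unknown, so a weak peak at a paralog may have been missed at the depth of these libraries.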
